A study of Mus musculus with 8 samples.

Results

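Aminoacyl-tRNA synthetases are the enzymes that join each amino acid to its transfer RNA, the step that sets which amino acid a codon stands for. Mammalian cells make a cytosolic set and a separate mitochondrial set, and both are encoded in the nucleus and made in the cytosol. Many cytosolic synthetase genes are known targets of ATF4, the transcription factor whose own translation increases when the initiation factor eIF2 is phosphorylated during amino acid shortage or stress in the endoplasmic reticulum. Part of the cytosolic set is held in the multisynthetase complex by the scaffold proteins Aimp1, Aimp2 and Eef1e1. The 36 genes described here are the synthetases taken by gene symbol, without regard to their measured values, from 23929 symbols in the deposited files. Of these, 20 are cytosolic and 16, the symbols ending in ars2, are mitochondrial. All 36 were found, each as a single entry.

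RNA of 4 mouse pro-B cell lines was sequenced, with 2 libraries from each line. Pro-B cells are B cell precursors of the bone marrow that assemble the immunoglobulin heavy chain (IgH) locus. All lines are labelled as untreated, of strain 129SV and of bone marrow. The WT line is labelled wild type. CBE line 1 and CBE line 2 carry CBE-/- in their titles and IGCR1-/- as genotype: IGCR1 is a regulatory region of IgH that lies 5′ of the D segments, and CBE are its CTCF-binding elements. The fourth line is labelled Eµ-/- and lacks the intronic IgH enhancer. WT and Eµ-/- are 1 line each, so genotype and line cannot be told apart, and the age of the animals and the way the lines were made immortal were not given in the sources used here. No gene level was used here to check the labels of the deletions.

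Levels are the authors' FPKM, fragments scaled by the length of the transcript and by the sequencing depth. The summed FPKM of a library ran from 490900 in Eµ-/- replicate 2 to 530200 in WT replicate 2, with both WT sums the highest. Comparisons between libraries therefore depend on the scaling, and other scalings are given as alternatives. The interval of a synthetase reached from 0.730% of its value on each side, for Lars2, to 9.33%, for Ears2. Read as counting noise alone, the deposited intervals imply 31.3 to 49.5 M reads a library, which is not a measured read number. Genes of similar level had unlike intervals, 4.41 to 4.67% for Qars and 1.74 to 2.46% for Rars. All 14 pro-B markers tested were present in at least some lines, among them Cd79a in every library, while Rag1 and Rag2 were at most 0.0427 FPKM in the WT libraries. The T cell markers Cd3e, Cd4 and Cd8a were at 0 in every library, although Lck stood between 17.03 and 82.05 FPKM. The summed level of 9 myeloid markers was 1.61 to 8.85 FPKM and those of 6 erythroid and of 6 stromal markers were at most 0.388 and 0.128 FPKM. In RNA of whole cultures, fewer cells of a type and less RNA per cell cannot be told apart. Replicate 1 of CBE line 1 stood apart from the other 7 libraries for many cytosolic synthetases, and results that rest on it are given with and without it.

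Cytosolic enzymes had the higher FPKM, with Lars2 as the exception on the mitochondrial side. Only FPKM per gene were available, so where the reads of Lars2 lie could not be looked at. Averaged over the 4 lines, the cytosolic levels ran from 231 FPKM for Nars (asparagine) and 214 FPKM for Gars (glycine) to 47.6 FPKM for Farsa, a subunit of the phenylalanine enzyme, with a median of 87.5 FPKM. Gars and Kars (lysine) supply both compartments from 1 gene each and were first and second in level after Nars. Among the mitochondrial enzymes Lars2 (leucine) was at 300.5 FPKM, and the other 15 ran from 38.1 FPKM for Tars2 (threonine) down to 2.87 FPKM for Wars2 (tryptophan), with a median of 9.50 FPKM.

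**Figure D1:**
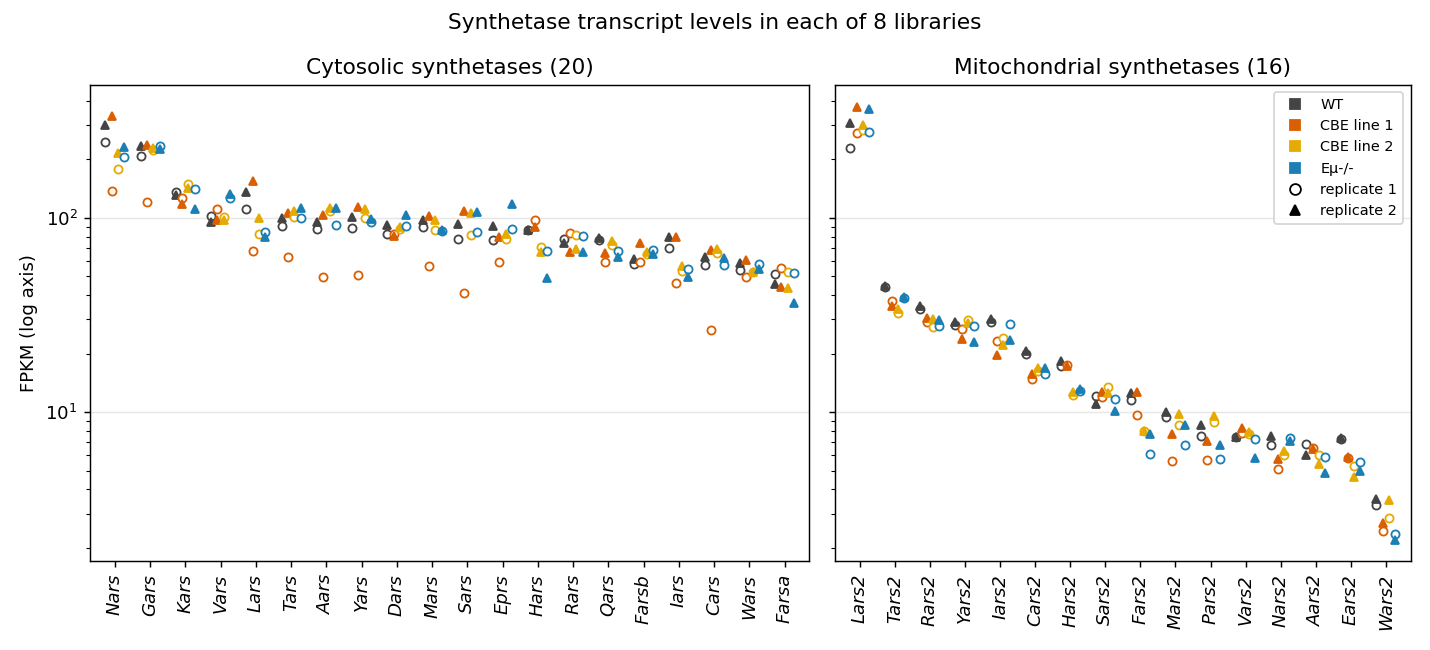
FPKM (log axis) of each synthetase in each of the 8 libraries, ordered by mean level, with cytosolic enzymes on the left and mitochondrial ones on the right; colours are lines, open circles replicate 1 and filled triangles replicate 2. The cytosolic means run from 231 to 47.6 FPKM and the mitochondrial ones from 38.1 to 2.87 FPKM, apart from Lars2 at 300.5 FPKM.

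For 16 pairings of a cytosolic with a mitochondrial enzyme for the same amino acid, the ratio of the mean levels ran from 2.45 for Iars over Iars2 (isoleucine) to 35.6 for Nars over Nars2, apart from Lars over Lars2 at 0.339. The ratio exceeded 1 in every library for all pairings other than Lars and Lars2, where it was 0.219 to 0.482. Lars2 by itself made up 48.3 to 64.1% of the summed mitochondrial FPKM. Sums are therefore given without it as well. Without Lars2, the cytosolic sum was 6.89 to 10.4 times the mitochondrial sum.

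The cytosolic synthetases were divided by whether they are commonly listed as ATF4-induced. On that list are 13 of them: Aars, Cars, Eprs, Gars, Iars, Lars, Mars, Nars, Sars, Tars, Vars, Wars and Yars. The other 7 are Dars, Farsa, Farsb, Hars, Kars, Qars and Rars. The list was chosen with earlier results of these data known, so the division describes the libraries and is not a test. Whether ATF4 sets the levels of these genes was not tested. Start-site regions were looked at for the core of the CARE element, the site that ATF4 binds with a C/EBP partner. The reason was that 12 of the 13 listed genes were lowest in the same library, CBE line 1 replicate 1. RefSeq windows (GRCm38.p6) of 300 bases, from 250 before to 50 after the start, were matched for 27 of the 36 genes. The letters TGATGNAA were searched on both strands, and read as TTNCATCA on the other. They were found in 5 of 8 listed genes with a window, in 0 of 5 other cytosolic genes and in 0 of 14 mitochondrial genes. Of the listed genes, Eprs, Mars and Sars had a window without a match, and Cars, Lars, Nars, Vars and Wars had no window. Among these were Sars, Cars, Nars and Lars, the listed genes that differed most between the libraries of CBE line 1. Of all 32851 windows, 3.97% held a match, and of all 27025 genes with a window 4.51% did. Of 39 genes of the amino acid stress response, 12 of the 34 with a window held a match. A match is a run of letters, not a site shown to be bound in these cells. The listed genes were taken as ATF4-induced, so more matches among them follow in part from the list. The shares are therefore no test of ATF4 in these libraries. The stretches that hold the matches follow, 5′ to 3′ on the gene's strand with the match in capitals, to show that the same letters recur at different distances from the start.
Aars (chr8:111033702-111033761, plus strand): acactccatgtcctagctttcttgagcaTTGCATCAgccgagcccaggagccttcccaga
Gars (chr6:55037941-55038000, plus strand): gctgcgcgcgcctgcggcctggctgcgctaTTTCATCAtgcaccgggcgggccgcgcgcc
Tars (chr15:11399659-11399718, minus strand): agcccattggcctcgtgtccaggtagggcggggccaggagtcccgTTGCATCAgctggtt
Iars (chr13:49682120-49682149, plus strand): gcctggcactgtcagtaTTGCATCAcctcc
Yars (chr4:129189893-129189922, plus strand): cgacgagctcagcTGATGCAAcccgacggg
Counted from the start with no base 0, the first bases of these matches were at -112 in Aars, -30 in Gars, -15 in Tars, 8 in Iars and 4 in Yars. Aars held another match at 10. Yars carried the letters in the opposite orientation to the other 4 stretches.

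In CBE line 1 most listed synthetases stood far apart between the libraries of the line. The summed level of all listed synthetases was the lowest of the 8 libraries in replicate 1, at 877 FPKM, and the highest in replicate 2, at 1645 FPKM. Sars, the serine enzyme, stood at 77.7 and 92.97 FPKM in WT replicates 1 and 2, 40.9 and 108 in those of CBE line 1, 81.7 and 106 in those of CBE line 2, and 84.1 and 107 in those of the Eµ-/- line. The library labelled CBE line 1 replicate 1 was the lowest of the 8 and replicate 2 of the same line the highest. Cars, the cysteine enzyme, stood at 56.9 and 62.5 FPKM in WT replicates 1 and 2, 26.5 and 68.6 in those of CBE line 1, 65.7 and 69.1 in those of CBE line 2, and 56.97 and 62.01 in those of the Eµ-/- line. Nars stood at 246 and 301 FPKM in WT replicates 1 and 2, 136 and 335 in those of CBE line 1, 178 and 215 in those of CBE line 2, and 205 and 230.2 in those of the Eµ-/- line. In both genes replicate 1 of CBE line 1 was again below the other 7 libraries. Replicate 2 of CBE line 1 exceeded replicate 1 by 2.64 times for Sars, 2.58 times for Cars, 2.46 times for Nars, 2.29 times for Lars (leucine), 2.24 times for Yars (tyrosine) and 2.06 times for Aars (alanine).

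Of the 13 listed synthetases, 12 were lowest of all 8 libraries in CBE line 1 replicate 1, all but Vars (valine), and 10 were at least 1.5 times higher in replicate 2 of that line. Of all genes tested, 16.8% were lowest in that library and 8.63% were at least 1.5 times higher in its replicate 2. Of the 7 other cytosolic synthetases, 1 (Qars) was lowest there and 0 reached 1.5 times; of the 16 mitochondrial enzymes, 4 (Cars2, Mars2, Nars2 and Pars2) were lowest there and 0 reached 1.5 times. The summed level of the 13 listed genes was 1357 and 1543 FPKM in WT replicates 1 and 2, 877 and 1645 in those of CBE line 1, 1309 and 1437 in those of CBE line 2, and 1362 and 1469 in those of the Eµ-/- line. The sum over the 7 others was 569 and 568 FPKM in WT replicates 1 and 2, 563 and 538 in those of CBE line 1, 577 and 554 in those of CBE line 2, and 567 and 495 in those of the Eµ-/- line. The listed sum in CBE line 1 thus spanned a wider range than in all other lines together, and the other sum did not set that library apart.

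**Figure D2:**
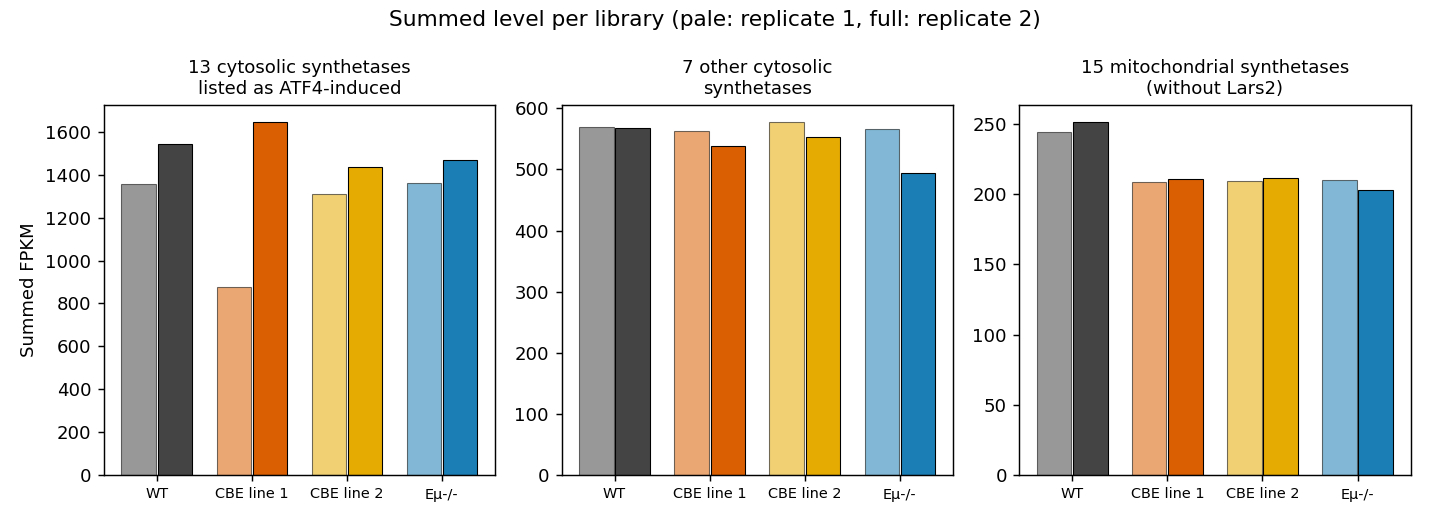
Summed FPKM per library of the 13 listed cytosolic synthetases, the 7 other cytosolic synthetases and the 15 mitochondrial synthetases other than Lars2; bars start at 0, pale bars are replicate 1 and full bars replicate 2. In the left panel CBE line 1 replicate 1 is lowest at 877; in the right panel the 6 mutant libraries, 203 to 212, lie below both WT libraries, 245 and 251.

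The same library was low for the amino acid stress genes at large. Of 37 such genes tested, from a list that holds amino acid transporters, serine and proline synthesis enzymes and stress factors, 28 were lowest in CBE line 1 replicate 1 and 31 were at least 1.5 times higher in replicate 2. Asns, the asparagine synthetase enzyme and a standard ATF4 target, stood at 109.9 and 139 FPKM in WT replicates 1 and 2, 49.04 and 304 in those of CBE line 1, 184 and 275 in those of CBE line 2, and 271 and 313 in those of the Eµ-/- line. Trib3, a pseudokinase induced by ATF4, stood at 34.7 and 49.4 FPKM in WT replicates 1 and 2, 2.41 and 48.7 in those of CBE line 1, 15.01 and 27.96 in those of CBE line 2, and 38.9 and 82.8 in those of the Eµ-/- line, and Chac1, a glutathione-degrading enzyme, at 17.3 and 26.7 FPKM in WT replicates 1 and 2, 2.94 and 95.9 in those of CBE line 1, 27.2 and 59.7 in those of CBE line 2, and 35.1 and 91.00 in those of the Eµ-/- line. Both were at their lowest in CBE line 1 replicate 1. Atf4 itself stood at 488 and 492 FPKM in WT replicates 1 and 2, 302 and 486 in those of CBE line 1, 343 and 361 in those of CBE line 2, and 548 and 445 in those of the Eµ-/- line. Its lowest library was the same one. The list contains no aminoacyl-tRNA synthetase. Its summed level was 3277 and 4230.2 FPKM in WT replicates 1 and 2, 1455 and 4295 in those of CBE line 1, 2548 and 3463 in those of CBE line 2, and 3846 and 4847 in those of the Eµ-/- line, lowest in the same library, and its part in the difference of the synthetases was not tested.

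Replicate 2 was also above replicate 1 for most listed genes in the other lines, by less: for 12 of 13 in WT, 12 in CBE line 2 and 9 in the Eµ-/- line. The median log2 difference of FPKM + 1, replicate 2 minus replicate 1, over the 13 listed genes was 0.18 for WT, 0.97 for CBE line 1, 0.09 for CBE line 2 and 0.07 for the Eµ-/- line. Over the 7 other cytosolic genes it was -0.00179, -0.11, -0.07 and -0.26 in the same order, and over the 16 mitochondrial genes 0.05, 0.08, 0.04 and -0.01. For the 37 stress genes it was 0.41, 1.76, 0.49 and 0.38, and for all genes tested 0.00, 0.03, 0.02 and 0.06. Replicate 2 exceeded replicate 1 in all 4 lines for 8 of 13 listed synthetases, 0 of 7 other cytosolic ones, 6 of 16 mitochondrial ones and 26 of 37 stress genes, against 26.1% of all genes tested. It was below replicate 1 in all 4 lines for 4 of the 7 others, against 19.1% of all genes.

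**Figure D3:**
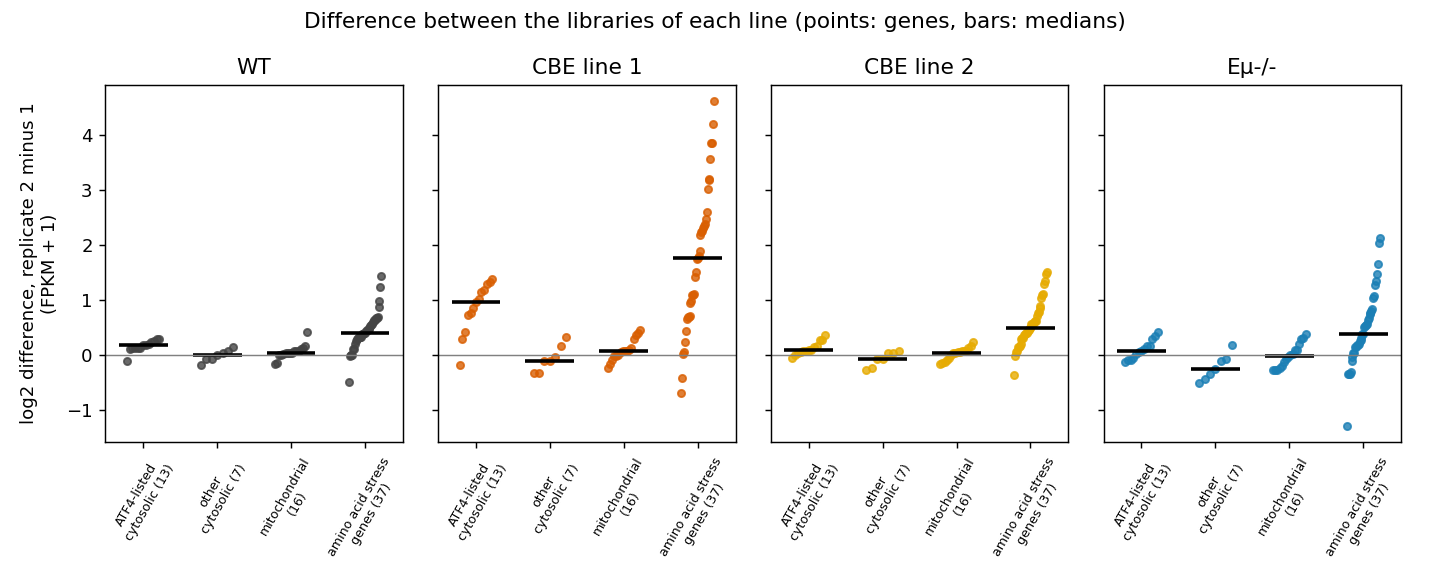
log2 difference of FPKM + 1 between replicate 2 and replicate 1 in each line, 1 panel per line; points are genes, sorted within each group, and black bars are medians. In CBE line 1 the listed synthetases have a median of 0.97 and the amino acid stress genes one of 1.76, while the other cytosolic and the mitochondrial synthetases have medians of -0.11 and 0.08.

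No synthetase passed the test of replicate 2 against replicate 1 over all lines, nor did any of the 10479 genes tested with limma (0 called, 0% of all genes). At an unadjusted p under 0.05, 9 of the 36 synthetases were found (7 higher and 2 lower in replicate 2), against 31.2% of all genes (18.3% higher and 13.0% lower). Eprs, the enzyme for glutamate and proline, differed by 0.29 ± 0.07 (SE) and Lars2 by 0.33 ± 0.08 (SE) on the log2 scale, with limma adjusted p-values of 0.0798 and 0.0778. Farsa lay the other way, at -0.32 ± 0.07 (SE) (limma adjusted p = 0.0765). It stood at 51.4 and 45.4 FPKM in WT replicates 1 and 2, 55.2 and 43.9 in those of CBE line 1, 52.5 and 43.6 in those of CBE line 2, and 52.1 and 36.4 in those of the Eµ-/- line, with replicate 2 the lower library in each line. Sars differed by 0.59 ± 0.19 (SE) (limma adjusted p = 0.109), 2.64 times in CBE line 1 and 1.20 to 1.30 times in the other lines. The labels give replicates only a number, and what the libraries of a line share was not given in the sources used here.

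Among the 4 lines, few synthetases differed beyond the spread between libraries. With limma, 5 of 36 passed at an adjusted p under 0.05, against 27.6% of all genes: Hars among the 20 cytosolic enzymes, and Ears2, Fars2, Hars2 and Tars2 among the 16 mitochondrial ones. None of the 13 listed cytosolic genes passed, and at an unadjusted p under 0.05 there was 1, against 41.9% of all genes. With the replicate number as a block, 13 of 36 passed, against 45.3% of all genes: Eprs, Vars, Cars2, Iars2, Mars2, Nars2, Pars2 and Wars2 joined the 5. Without either WT library or either library of CBE line 2, 0 of 36 passed, while 14.6 and 13.9% of all genes did without a WT library and 15.9 and 15.6% without one of CBE line 2. Without CBE line 1 replicate 2, 9 cytosolic and 3 mitochondrial enzymes passed, against 27.0%. Line p-values measure the spread between 2 libraries of a line, which may be technical.

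Hars, the cytosolic histidine enzyme, and Hars2, its mitochondrial counterpart, are neighbours on chromosome 18 (mm9), 74 bp apart. Hars2 stood at 17.3 and 18.2 FPKM in WT replicates 1 and 2, 17.4 and 17.2 in those of CBE line 1, 12.2 and 12.7 in those of CBE line 2, and 12.9 and 13.1 in those of the Eµ-/- line. The libraries of CBE line 2 and of the Eµ-/- line lay below all 4 libraries of WT and CBE line 1. Hars2 was lower than in WT in CBE line 2, with a log2 difference of -0.48 ± 0.08 (SE) (limma adjusted p = 0.00887) and in the Eµ-/- line, with -0.42 ± 0.08 (SE) (limma adjusted p = 0.0148). In CBE line 1 it was -0.04 ± 0.08 (SE) from WT (limma adjusted p = 0.799). The difference between the CBE lines was itself called, at -0.44 ± 0.08 (SE) (limma adjusted p = 0.0213). It was the only synthetase called between the CBE lines, 1 of 36, against 10.2% of all genes (5.17% higher and 5.03% lower), and with the replicate block Mars2 and Pars2 (methionine and proline), both higher in CBE line 2, joined it, against 16.6%. The call of Hars2 between the CBE lines was lost in 6 of the 8 fits that left out a library, all but those without an Eµ-/- library, while 2.50 to 7.20% of all genes were called in those 6 and 13.1 to 13.2% without an Eµ-/- library. Without CBE line 1 replicate 2, 7 cytosolic synthetases were called between the CBE lines, against 7.20%.

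Hars was also lower in the libraries of CBE line 2 and the Eµ-/- line than in those of WT and CBE line 1. It stood at 86.8 and 86.7 FPKM in WT replicates 1 and 2, 96.9 and 89.6 in those of CBE line 1, 70.6 and 66.9 in those of CBE line 2, and 67.1 and 49.2 in those of the Eµ-/- line. Both CBE line 1 libraries were above WT, and those of CBE line 2 and the Eµ-/- line were below. The Eµ-/- line was lower than WT, with a log2 difference of -0.59 ± 0.15 (SE) (limma adjusted p = 0.0338), and CBE line 2 was at -0.33 ± 0.15 (SE) (limma adjusted p = 0.18). Replicate 2 of the Eµ-/- line was the lowest library. Iars2 and Eprs, 33693 bp apart on chromosome 1, are the next closest neighbours in the family.

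In the Eµ-/- line against WT, 6 of 36 synthetases were called: Hars, Ears2, Fars2, Hars2 and Wars2 lower and Vars higher, against 10.4% of all genes lower, 11.3% higher and 21.8% in either direction. Vars stood at 102 and 94.6 FPKM in WT replicates 1 and 2, 111 and 97.8 in those of CBE line 1, 101 and 97.4 in those of CBE line 2, and 126 and 133 in those of the Eµ-/- line. Both Eµ-/- libraries were above the other 6, with a log2 difference of 0.40 ± 0.10 (SE) from WT (limma adjusted p = 0.0329). Vars was the 1 listed synthetase that was not lowest in CBE line 1 replicate 1, and the 1 listed synthetase called in a line comparison in the unblocked fit of all 8 libraries. Lars and Iars were not called, at -0.57 ± 0.35 (SE) and -0.52 ± 0.23 (SE) (limma adjusted p = 0.296 and 0.166). With the replicate block 7 mitochondrial enzymes were called in the Eµ-/- line in place of 4, adding Cars2, Pars2 and Rars2, against 16.4% of all genes lower. With only the libraries of the Eµ-/- line and WT in the fit 0 of 36 were called, against 12.0% of all genes. Without either WT library 0 of 36 were called, against 7.55 to 8.52%. Without either library of CBE line 2, or without Eµ-/- replicate 2, 0 cytosolic and 2 mitochondrial enzymes were called, and without either library of CBE line 1 there were 4 of each, against 14.4 to 14.7% and 23.2 to 23.3% of all genes.

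No cytosolic synthetase was called with limma in the CBE lines against WT, jointly, in line 1 or in line 2, against 22.3, 19.4 and 18.7% of all genes. Of the 20, 0 jointly, 1 in CBE line 1 (Qars) and 0 in CBE line 2 had an unadjusted p under 0.05, against 35.0, 32.3 and 32.1% of all genes. The median log2 difference of the 20 cytosolic members was -0.09 jointly, -0.27 in CBE line 1 and -0.00151 in CBE line 2, beside 0.03, 0.02 and 0.04 over all genes. Without CBE line 1 replicate 1 the median of that line turned to 0.10, and without its replicate 2 it was -0.54, while the joint one was -0.013 and -0.25. Without replicate 2, leaving the low library as the line's only one, 10 cytosolic synthetases were called lower than WT (Aars, Cars, Gars, Iars, Lars, Mars, Nars, Sars, Tars and Yars), against 8.32% of all genes lower. Without replicate 1, 0 were called, against 5.22%. All 10 are on the ATF4 list. In these fits the lone library was taken to vary like the other lines. Jointly in the CBE lines, 6 cytosolic synthetases were called without CBE line 1 replicate 2, against 21.9% of all genes. In CBE line 2, 1 was called when a library of CBE line 1 or of the Eµ-/- line was left out, against 19.5 to 24.2%. Qars, the glutamine enzyme, stood at 76.5 and 78.8 FPKM in WT replicates 1 and 2, 58.97 and 65.98 in those of CBE line 1, 71.97 and 76.3 in those of CBE line 2, and 67.8 and 63.1 in those of the Eµ-/- line, with all 6 mutant libraries below both WT ones. With the replicate block it was the 1 cytosolic synthetase called in CBE line 1.

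The summed level of the mitochondrial enzymes other than Lars2 was lower in the mutant libraries than in WT. The 15 other genes summed to 245 and 251 FPKM in WT replicates 1 and 2, 209 and 211 in those of CBE line 1, 209 and 212 in those of CBE line 2, and 210.0 and 203 in those of the Eµ-/- line. All 6 mutant libraries were below both WT libraries, and the lines stood at 84.7% of the WT mean in CBE line 1, 84.9% for CBE line 2 and 83.3% for the Eµ-/- line. With TPM scaling these values were 88.3, 88.0 and 88.2%, and with median-of-ratios scaling 83.6, 82.9 and 82.0%, again with 6 of 6 mutant libraries below WT. The 3 comparisons share the 2 WT libraries. Lars2 stood at 229 and 306 FPKM in WT replicates 1 and 2, 273 and 373 in those of CBE line 1, 283 and 299.9 in those of CBE line 2, and 277 and 362 in those of the Eµ-/- line. Its libraries of different lines overlapped, and with it the sum was 473 and 557 FPKM in WT replicates 1 and 2, 482 and 584 in those of CBE line 1, 493 and 512 in those of CBE line 2, and 487 and 566 in those of the Eµ-/- line, with no such separation.

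Jointly in the CBE lines, 4 of 16 mitochondrial enzymes were called lower and 0 higher, against 9.78% of all genes lower and 12.5% higher: Cars2, Ears2, Hars2 and Tars2. The median log2 difference of the 15 without Lars2 was -0.26 jointly, -0.28 in CBE line 1, -0.18 for CBE line 2 and -0.25 for the Eµ-/- line, beside 0.03, 0.02, 0.04 and 0.01 over all genes. Singly, CBE line 1 had 1 called lower (Cars2), against 8.54% of all genes, and CBE line 2 had 3 (Ears2, Hars2 and Tars2), against 8.19%, and 0 were higher, against 10.9 and 10.5%. With the replicate block these counts were 8 jointly, 6 in CBE line 1 and 7 in CBE line 2, against 15.1, 14.1 and 13.1% of all genes called lower. Without either WT library 0 were called in each comparison, against 10.1 and 8.69% of all genes jointly, 8.95 and 7.55% in CBE line 1 and 8.99 and 8.40% in CBE line 2. Without replicate 1 or 2 of CBE line 2, 1 and 0 were called jointly, against 13.1 and 13.0%, and 0 in each CBE line singly, against 13.4 to 13.5% in line 1 and 8.07 to 8.11% in line 2. The 1 call in CBE line 1 was also lost without replicate 1 of that line, and became 3 without either Eµ-/- library, against 25.0% of all genes. The 3 in CBE line 2 became 5 without either Eµ-/- library, against 24.2%.

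**Figure D4:**
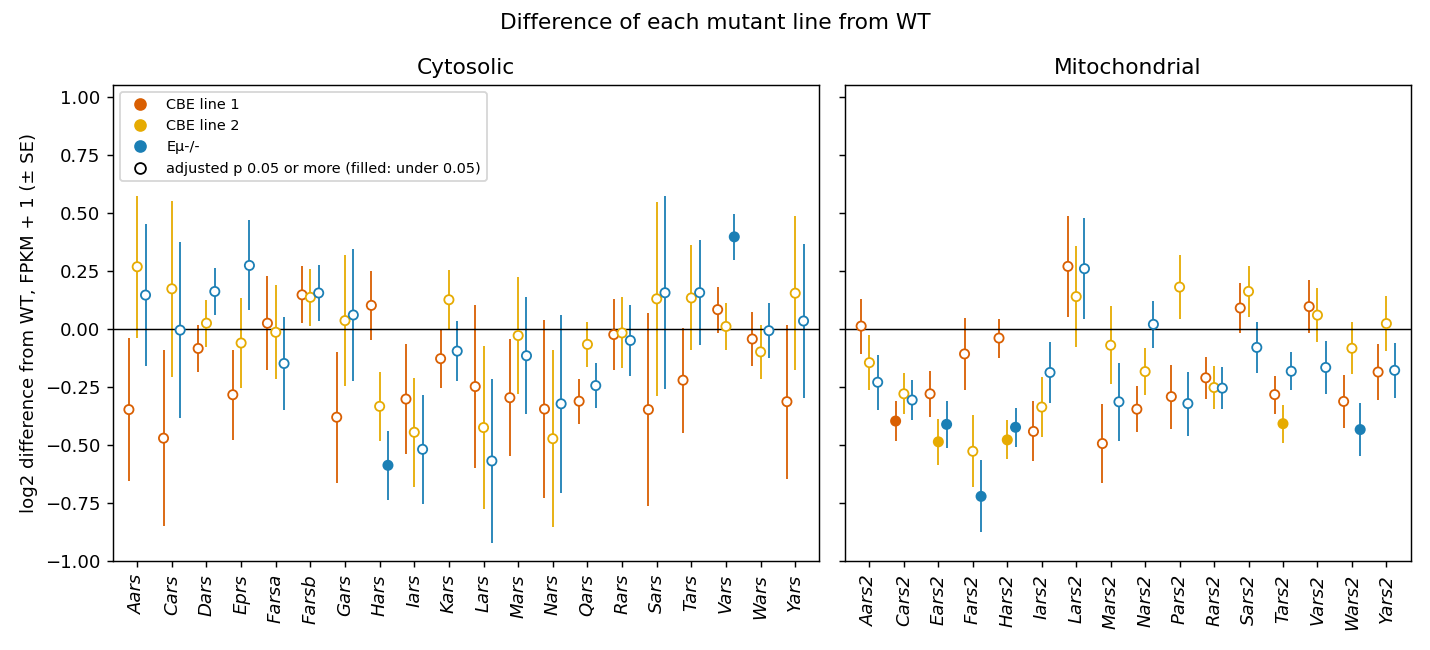
log2 difference of FPKM + 1 of each mutant line from WT for the 20 cytosolic and the 16 mitochondrial synthetases; points are limma estimates, bars ± 1 SE, and filled points have an adjusted p under 0.05. Most mitochondrial points lie below 0, and the error bars of Sars, Cars and Nars are wide in all lines because the spread is shared.

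Tars2 stood at 44.04 and 44.4 FPKM in WT replicates 1 and 2, 37.3 and 35.1 in those of CBE line 1, 32.5 and 33.7 in those of CBE line 2, and 38.7 and 39.1 in those of the Eµ-/- line. Its 2 WT libraries were close together and above all 6 others, with CBE line 2 lowest, -0.41 ± 0.08 (SE) from WT (limma adjusted p = 0.0151). The Eµ-/- line was at -0.18 ± 0.08 (SE) (limma adjusted p = 0.161), and CBE line 1 at -0.28 ± 0.08 (SE) (limma adjusted p = 0.0557).

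Ears2, the mitochondrial glutamate enzyme, stood at 7.25 and 7.38 FPKM in WT replicates 1 and 2, 5.83 and 5.88 in those of CBE line 1, 5.28 and 4.62 in those of CBE line 2, and 5.53 and 5.0 in those of the Eµ-/- line. All 6 mutant libraries were below WT, with log2 differences of -0.49 ± 0.10 (SE) in CBE line 2 (limma adjusted p = 0.017) and -0.41 ± 0.10 (SE) in the Eµ-/- line (limma adjusted p = 0.03). CBE line 1 was at -0.28 ± 0.10 (SE) (limma adjusted p = 0.103). Ears2 had the widest deposited interval of the family.

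Cars2, the mitochondrial cysteine enzyme, stood at 19.98 and 20.6 FPKM in WT replicates 1 and 2, 14.7 and 15.7 in those of CBE line 1, 16.3 and 16.8 in those of CBE line 2, and 15.7 and 16.8 in those of the Eµ-/- line. It was lower in CBE line 1, with -0.40 ± 0.09 (SE) (limma adjusted p = 0.0227), and CBE line 2 and the Eµ-/- line were at -0.28 ± 0.09 (SE) and -0.31 ± 0.09 (SE) (limma adjusted p = 0.0735 and 0.0502). The 6 mutant libraries were all below WT, with both of CBE line 1 the lowest.

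Fars2, for phenylalanine, stood at 11.5 and 12.5 FPKM in WT replicates 1 and 2, 9.62 and 12.6 in those of CBE line 1, 7.99 and 8.01 in those of CBE line 2, and 6.10 and 7.72 in those of the Eµ-/- line. The Eµ-/- libraries were the lowest, -0.72 ± 0.16 (SE) from WT (limma adjusted p = 0.0199), and CBE line 2 was also below WT without a call, -0.53 ± 0.16 (SE) (limma adjusted p = 0.0612). CBE line 1 overlapped WT. Wars2, the least abundant member, stood at 3.31 and 3.55 FPKM in WT replicates 1 and 2, 2.45 and 2.70 in those of CBE line 1, 2.86 and 3.54 in those of CBE line 2, and 2.37 and 2.20 in those of the Eµ-/- line, and was lower in the Eµ-/- line, with -0.43 ± 0.11 (SE) (limma adjusted p = 0.037), where log2 values of FPKM + 1 understate the change of so low a gene.

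Iars2 and Rars2 (arginine) had all 6 mutant libraries below WT and no call in the unblocked fit of all 8 libraries. Iars2 stood at 28.98 and 29.95 FPKM in WT replicates 1 and 2, 23.3 and 19.7 in those of CBE line 1, 24.2 and 22.1 in those of CBE line 2, and 28.4 and 23.4 in those of the Eµ-/- line, and jointly in the CBE lines it was -0.39 ± 0.11 (SE) from WT (limma adjusted p = 0.0504). Rars2 stood at 33.96 and 35.1 FPKM in WT replicates 1 and 2, 29.1 and 30.4 in those of CBE line 1, 27.5 and 30.3 in those of CBE line 2, and 27.9 and 29.7 in those of the Eµ-/- line, -0.23 ± 0.08 (SE) from WT jointly (limma adjusted p = 0.085). In all, 5 of 16 mitochondrial and 1 of 20 cytosolic synthetases had every mutant library below WT and 0 had every one above, against 14.0 and 18.2% of all genes. Of the rest of the mitochondrial set, Aars2, Mars2, Nars2, Pars2, Sars2, Vars2 and Yars2, like Lars2, were called in no line comparison in that fit, and ranged from 4.85 FPKM for Aars2 to 29.7 FPKM for Yars2 over the 8 libraries, Lars2 apart.

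Of the multisynthetase complex, none of the 8 enzymes (Dars, Eprs, Iars, Kars, Lars, Mars, Qars and Rars) was called in a line comparison in the unblocked fit of all 8 libraries, and 1 was at an unadjusted p under 0.05 among the 4 lines, against 27.6 and 41.9% of all genes. Iars, Lars and Mars were among the enzymes called lower in CBE line 1 without its replicate 2. Of the 3 scaffolds, Eef1e1 was called. It stood at 64.9 and 75.3 FPKM in WT replicates 1 and 2, 74.3 and 63.1 in those of CBE line 1, 42.6 and 42.9 in those of CBE line 2, and 54.7 and 47.3 in those of the Eµ-/- line, with both CBE line 2 libraries the lowest. It was lower than WT in CBE line 2, with -0.70 ± 0.13 (SE) (limma adjusted p = 0.0109), and in the Eµ-/- line, with -0.45 ± 0.13 (SE) (limma adjusted p = 0.049). Aimp1 and Aimp2 were called in no comparison, and Aimp2 stood at 45.1 and 35.99 FPKM in WT replicates 1 and 2, 63.3 and 47.8 in those of CBE line 1, 56.5 and 45.9 in those of CBE line 2, and 54.2 and 33.03 in those of the Eµ-/- line, with replicate 2 the lower library in each line.

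Among 15 other charging and tRNA quality factors, 1 was called higher and 3 lower jointly in the CBE lines, against 12.5 and 9.78% of all genes. Tarsl2, a threonine synthetase-like protein outside the 36, was higher: it stood at 3.59 and 3.41 FPKM in WT replicates 1 and 2, 6.38 and 6.25 in those of CBE line 1, 6.82 and 6.86 in those of CBE line 2, and 3.92 and 3.84 in those of the Eµ-/- line, 0.75 ± 0.07 (SE) from WT (limma adjusted p = 0.00059). Its 4 CBE libraries were above the other 4. Sepsecs, the enzyme that completes selenocysteinyl-tRNA, was among those called lower, at -0.37 ± 0.10 (SE) (limma adjusted p = 0.037). In the Eµ-/- line 2 of the 15 were lower, Pet112 at -0.72 ± 0.13 (SE) and Ptrh2 at -0.45 ± 0.12 (SE) (limma adjusted p = 0.0112 and 0.0424), and 0 were higher, against 10.4 and 11.3% of all genes. Pet112 is a subunit of the transamidase that makes mitochondrial glutaminyl-tRNA.

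Of the cytosolic elongation factors 2 of 5 were called lower jointly in the CBE lines, and of the mitochondrial initiation, elongation, release and recycling factors 2 of 9, with 0 higher in either list, against 9.78% of all genes lower and 12.5% higher. Eef1g, a subunit of the factor that recharges eEF1A with GTP, stood at 1058 and 1074 FPKM in WT replicates 1 and 2, 555 and 597 in those of CBE line 1, 531 and 588 in those of CBE line 2, and 674 and 573 in those of the Eµ-/- line, lower in the CBE lines with -0.91 ± 0.11 (SE) (limma adjusted p = 0.00138) and with -0.78 ± 0.12 (SE) in the Eµ-/- line (limma adjusted p = 0.00626). Tsfm, the mitochondrial exchange factor, stood at 46.3 and 42.9 FPKM in WT replicates 1 and 2, 30.9 and 32.8 in those of CBE line 1, 33.8 and 32.8 in those of CBE line 2, and 36.2 and 31.7 in those of the Eµ-/- line, lower in the CBE lines with -0.44 ± 0.09 (SE) (limma adjusted p = 0.0126) and with -0.39 ± 0.10 (SE) in the Eµ-/- line (limma adjusted p = 0.0369). WT was the highest line for both genes. Among 15 Myc and growth genes, 0 were called jointly in the CBE lines, where 1 higher and 2 lower had an unadjusted p under 0.05, against 19.7 and 15.3% of all genes. Myc itself stood at 165 and 220.3 FPKM in WT replicates 1 and 2, 122 and 159.5 in those of CBE line 1, 193 and 227 in those of CBE line 2, and 189.6 and 185 in those of the Eµ-/- line.

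Of the 37 amino acid stress genes, 3 were called higher and 2 lower jointly in the CBE lines, against 12.5 and 9.78% of all genes. In the Eµ-/- line 4 were higher and 1 lower, against 11.3 and 10.4%. Psat1, the phosphoserine aminotransferase of serine synthesis, stood at 276 and 361 FPKM in WT replicates 1 and 2, 100.1 and 163 in those of CBE line 1, 162 and 201 in those of CBE line 2, and 294 and 232 in those of the Eµ-/- line, and was lower jointly in the CBE lines, with -1.05 ± 0.23 (SE) (limma adjusted p = 0.0194). That call was lost without WT replicate 1, WT replicate 2 or CBE line 2 replicate 1 (limma adjusted p up to 0.172). Got1, the cytosolic aspartate aminotransferase, was lower in all lines, at -0.87 ± 0.09 (SE) jointly in the CBE lines and -0.63 ± 0.11 (SE) in the Eµ-/- line (limma adjusted p = 0.000861 and 0.00801). Stc2, a secreted glycoprotein, was at 0 in both WT libraries and in CBE line 1 replicate 1, and at 0.0354 FPKM in its replicate 2. In replicates 1 and 2 it stood at 2.48 and 4.33 FPKM for CBE line 2 and at 1.17 and 1.83 for the Eµ-/- line. Ddit3, the stress factor CHOP, stood at 28.4 and 79.01 FPKM in WT replicates 1 and 2, 11.1 and 62.6 in those of CBE line 1, 16.8 and 48.3 in those of CBE line 2, and 43.2 and 194 in those of the Eµ-/- line and was called in no line comparison, with replicate 2 above replicate 1 in each line.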

How the data were processed

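The deposited values are FPKM per gene and library, with an interval and a quantification status, per the file headers. TopHat, Cufflinks and mm9 are named by the submitters' processing notes. Tool versions and settings were not given in the sources used here. Libraries were stranded mRNA libraries sequenced as single 75 bp reads, per the labels' protocols, and read numbers per library were implied from the intervals, taken as 2 SD on each side. Whether counting used the strand was not given in the sources used here. Of 24459 entries, those of 1 symbol were summed (277 symbols), and 21 whose status was not OK, none of them a synthetase, were left out.

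The 10479 genes, all 36 synthetases among them, that reached an FPKM of 1 in 2 or more of the 8 libraries were tested with limma 3.58.1 (R 4.3.3) on log2(FPKM + 1), with empirical Bayes moderation, a mean-variance trend, a spread shared by the 4 lines and Benjamini-Hochberg adjustment over all genes (threshold 0.05). Log2 differences are on this scale and understate the change of low genes. "Jointly" means the mean of the CBE lines. Same-numbered libraries deviated together (correlation of replicate differences between lines over all genes 0.279 to 0.502), so a fit with the replicate number as a block is given where it changed a call. Libraries of a line correlated at 0.978 to 0.992 and those of different lines at 0.926 to 0.964. The labels do not say that libraries came from separate cultures.

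Named genes are all synthetases, up to 4 called genes of each related list with the largest differences, and Atf4, Asns, Ddit3, Trib3, Chac1, Myc, Aimp1, Aimp2 and Eef1e1, and not all that the rule allows are reported here. The synthetases and the lists were chosen with earlier results of these data known. Start-site windows came from a RefSeq table. Alternatives were pseudocounts of 0.1 and 5, no filter or a minimum mean FPKM of 5, scaling by TPM, median-of-ratios or quantiles, no trend, only the libraries compared, the block, and each library left out. The sums without Lars2 were added after seeing the data. The fits were tested on simulated data.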

Additional observations from a re-analysis of the deposited data

Results flagged for a closer look

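Hars2, with the scaffold Eef1e1 and the tRNA quality factor Dtd1, differed between the CBE lines by the test of the difference itself. The effect against WT in CBE line 2 minus that in CBE line 1 was -0.438 for Hars2 (limma adjusted p = 0.0213), -0.667 for Eef1e1 (limma adjusted p = 0.0219) and 0.520 for Dtd1, a D-aminoacyl-tRNA deacylase (limma adjusted p = 0.0168), on the log2 scale. Dtd1 stood at 26.4 and 27.1 FPKM in WT replicates 1 and 2, 24.1 and 25.1 in those of CBE line 1, 36.3 and 35.1 in those of CBE line 2, and 27.6 and 24.4 in those of the Eµ-/- line.

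In 4 synthetases all libraries of 1 mutant line were above the WT libraries and all of another below, 4 of 36 against 13.0% of all genes tested. For Hars, with a WT mean of 86.8 FPKM, those above were CBE line 1 and those below CBE line 2 and the Eµ-/- line. For Kars, with a WT mean of 133 FPKM, CBE line 2 was above and CBE line 1 below. For Pars2, with a WT mean of 8.01 FPKM, CBE line 2 was above, and CBE line 1 and the Eµ-/- line below. For Vars2, with a WT mean of 7.43 FPKM, both CBE lines were above and the Eµ-/- line below. Between the CBE lines, the limma adjusted p-values were 0.133 for Hars, 0.303 for Kars and 0.0887 for Pars2. The differences between the Eµ-/- line and the CBE lines were not tested.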

How the results depend on the processing

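No estimate of a called synthetase or related gene reversed under any alternative. Counts of synthetases called at an adjusted p under 0.05 with limma moved as follows, written as cytosolic and mitochondrial enzymes. The larger shifts are given, and not all smaller ones. Among the 4 lines (1 and 4 called), a mean FPKM of 5 or more gave 0 and 2, TPM scaling 2 and 1, quantile normalization 7 mitochondrial, and the replicate block 3 and 10. No filter gave 3 mitochondrial there and median-of-ratios scaling 5. Jointly in the CBE lines (0 and 4), TPM scaling gave 2 mitochondrial, quantile normalization 6, only the libraries compared 5 and the replicate block 8. In CBE line 1 (0 and 1), no filter gave 1 and 2, median-of-ratios scaling 2, TPM scaling 0 and quantile normalization 4 mitochondrial, the replicate block 1 and 6, and only the libraries compared 0 mitochondrial. In CBE line 2 (0 and 3), median-of-ratios scaling and quantile normalization each gave 5 mitochondrial, the replicate block 7, and only the libraries compared 2 and 6. In the Eµ-/- line (2 and 4), no filter gave 1 cytosolic, TPM scaling 2 mitochondrial, the replicate block 7 mitochondrial, and only the libraries compared 0 and 0. Between the CBE lines (0 and 1), quantile normalization gave 2 mitochondrial, the replicate block 3, and only the libraries compared 0. The cause of these shifts was not tested, and the replicate block changed no other call of a synthetase than those given. Leaving out 1 library in turn gave 0 to 9 cytosolic and 0 to 5 mitochondrial enzymes among the lines, 0 to 6 and 0 to 5 jointly in the CBE lines, 0 to 10 and 0 to 3 for CBE line 1, 0 to 1 and 0 to 5 for CBE line 2, 0 to 4 and 0 to 4 for the Eµ-/- line, 0 to 7 and 0 to 1 between the CBE lines, and 0 and 0 between replicates. Without Lars2, the mitochondrial sum was 248 FPKM (WT), 210.0 FPKM (CBE line 1), 211 FPKM (CBE line 2) and 207 FPKM (Eµ-/-), in place of 515, 533, 502 and 526 FPKM.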
